A study of Mus musculus with 5 samples.

Results

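The Skint genes are a mouse family of butyrophilin-related membrane proteins, and 10 of them, Skint1 to Skint10, were followed here across keratinocytes of back skin. They were found by matching Ensembl gene IDs without their version to these symbols, and all 10 were present among the 56691 gene IDs of the count table. All 10 passed the filter on low counts, with 278 to 6223 counts per gene and library, so no member was too low to compare.

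Skint proteins carry an immunoglobulin-like outer part and several membrane-spanning segments, and they are made mainly by thymic epithelium and by keratinocytes. Skint1, the founding member, is needed in the thymus for the maturation of the gamma delta T cells that settle in mouse epidermis as dendritic epidermal T cells. Skint2 has been described as an inhibitory ligand of T cells, and the individual tasks of most other members are less well known.

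The mice were 28 days old, and their back skin cells formed 2 groups. The GFP group holds 3 libraries of keratinocytes sorted for GFP, which the labels call epidermal stem cells and give the genotype Lrig1 positive. The bulk group holds 2 libraries of the population taken without that sort, which the labels call epidermal basal cells and give the genotype WT. The comparison asks how the Skint genes differ between Lrig1 positive cells and the population as a whole. No treatment is given for either group, and the sources used here do not name the reporter construct, the gate or the strain. Lrig1 marks stem cells of the upper hair follicle.

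The libraries held 56829330 to 105887450 counts. Bulk and GFP replicates 1 share a title number, as do bulk and GFP replicates 2, whereas GFP replicate 3 is unpaired. GFP replicate 3 also stood apart by 53714 counts of Xist, a transcript of female cells, against 0 to 8 in the other 4 libraries. Ddx3y, a gene of the Y chromosome, had 62 counts in GFP replicate 3 and 1750 to 4462 in the others. Both bulk libraries thus read as male and the GFP group as mixed, so sex and group are partly confounded. The labels do not say that the libraries of a group came from separate animals, so p-values measure at most the spread between these libraries. For each gene, edgeR also moderates that spread with the spread of the other genes. Levels are given as CPM (counts after scaling for library depth), and changes are log2 ratios of GFP over bulk ± SE from edgeR's quasi-likelihood test, adjusted by the Benjamini-Hochberg method over 18583 genes and called at 0.05. In a mixture of cells, fewer cells of a type and less RNA per cell cannot be told apart.

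The 10 genes lie side by side on chromosome 4, in the order Skint8, Skint7, Skint1, Skint4, Skint3, Skint9, Skint2, Skint10, Skint6 and Skint5, followed by Skint11, a family gene outside the 10. Skint9, Skint10, Skint6 and Skint5 are on the minus strand and the others on the plus strand. Some neighbours share stretches of sequence. Of all 50-base windows of the longest coding transcript, 19.82% of Skint8 windows and 14.72% of Skint7 windows were identical to one in the other gene. Skint5 and Skint6 shared 3.93% and 4.64% of theirs, and no window was shared by Skint1, Skint4, Skint9 or Skint10 with another Skint gene. How reads from shared stretches were assigned, and whether strand was used, is not stated, so the split between Skint7 and Skint8 is the least certain. The transcript Gm12823 overlaps 63 exonic bases of Skint6 on the opposite strand and had 1 to 13 counts per library.

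The promoters of Skint5 and Skint6 are shown because these neighbouring genes had their lowest levels in the same GFP libraries. They are the 250 bases before the RefSeq start on build GRCm38.p6, minus strand, at chr4:113999504-113999753 for Skint5 and chr4:113286974-113287223 for Skint6, with capitals at the bases that differ.
Skint5: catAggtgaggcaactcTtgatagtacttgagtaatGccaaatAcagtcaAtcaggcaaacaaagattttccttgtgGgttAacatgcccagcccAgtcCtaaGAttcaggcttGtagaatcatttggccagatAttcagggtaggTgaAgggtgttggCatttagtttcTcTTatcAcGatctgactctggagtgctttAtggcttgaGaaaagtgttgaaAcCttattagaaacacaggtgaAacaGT
Skint6: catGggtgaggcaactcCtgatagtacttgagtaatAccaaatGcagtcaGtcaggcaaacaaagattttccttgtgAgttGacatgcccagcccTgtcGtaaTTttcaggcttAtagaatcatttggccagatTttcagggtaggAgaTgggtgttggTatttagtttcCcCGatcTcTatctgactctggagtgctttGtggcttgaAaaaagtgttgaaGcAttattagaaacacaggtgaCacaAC
Of these 250 bases 222 were identical (88.8%) and 28 differed. Among the 55 pairs formed by the 11 RefSeq promoter windows of 300 bases (250 before and 50 after the start, Skint4 having more than 1 start), this pair had the highest identity, 89.7%. The median of the pairs was 47.4%, and the next pair, Skint9 and Skint10, reached 57.5%.

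The promoters of Skint1 and Skint7, which were higher in GFP in both pairs of libraries with a shared title number, and of Skint9, the most abundant member in bulk, are shown with matches to the TATA box letters TATAAA on either strand in capitals. Skint1 (chr4:112006019-112006268) and Skint7 (chr4:111972677-111972926) are on the plus strand and Skint9 (chr4:112433986-112434235) is on the minus strand of GRCm38.p6.
Skint1: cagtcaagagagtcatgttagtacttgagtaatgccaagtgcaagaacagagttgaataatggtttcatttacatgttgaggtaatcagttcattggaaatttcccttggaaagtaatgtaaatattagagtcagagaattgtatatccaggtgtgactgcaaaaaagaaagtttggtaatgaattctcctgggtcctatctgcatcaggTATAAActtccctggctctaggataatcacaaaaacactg
Skint7: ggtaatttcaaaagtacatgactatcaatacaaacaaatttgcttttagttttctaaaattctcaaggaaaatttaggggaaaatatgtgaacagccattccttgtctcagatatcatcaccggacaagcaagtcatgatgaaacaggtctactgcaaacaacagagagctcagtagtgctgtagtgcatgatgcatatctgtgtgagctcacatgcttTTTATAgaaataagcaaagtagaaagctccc
Skint9: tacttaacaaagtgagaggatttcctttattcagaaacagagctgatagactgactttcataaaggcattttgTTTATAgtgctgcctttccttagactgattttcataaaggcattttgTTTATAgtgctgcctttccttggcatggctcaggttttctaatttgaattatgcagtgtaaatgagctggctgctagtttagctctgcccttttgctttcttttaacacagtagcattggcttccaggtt
Counted from the start site, the match begins at position -40 in Skint1 and -31 in Skint7, while Skint9 holds matches at -177 and -130. Skint2, also higher in GFP in both pairs (log2 difference 0.32 and 0.1), is not shown, and its match begins at -18. In the 300-base windows, 7 of 10 members held TATAAA, against 13.62% of all 32851 promoters. A member counted if any of its starts matched, as Skint4 did at start 2 only (-169 and -163), whereas the background counts single promoters. The matches of Skint8 and Skint6 begin at -209 and at position 8. Those of Skint7 and Skint8 lie in a stretch of sequence common to both, so the members are not independent. The AP-1 letters TGANTCA were in 0 of 10 members (7.81% of all promoters), the AP-2 letters GCCNNNGGC in 0 (16.59%) and the GATA letters AGATAA in 1 (11.18%). These are matches of letters only.

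Skint9 and Skint1 were the most abundant members once levels were divided by transcript length. In bulk, Skint9 had a mean of 51.0 RPKM (CPM per kilobase) and Skint1 33.9, and the libraries of these neighbours in the order did not overlap. In GFP the order of this pair was the other way round, with 43.9 RPKM for Skint1 and 25.4 for Skint9, again without overlap. Skint10 (26.8 RPKM in bulk, 16.9 in GFP) and Skint7 (18.7 and 24.8) came next. Skint6, Skint4, Skint3, Skint5 and Skint8 had bulk means of 14.4 down to 7.57 RPKM, and from Skint1 down to Skint8 each member overlapped with the next in the bulk order. Skint2 was lowest in bulk at 3.38 RPKM, below Skint8 in both libraries. In GFP, Skint9 and Skint7 overlapped, whereas Skint7 lay above Skint10, and Skint10 above Skint4, in every library. From Skint4 down (8.84 RPKM) each member overlapped with the next. In that group Skint5 had the lowest mean, 2.62 RPKM, and overlapped with Skint2 at 4.15.

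**Figure D1:**
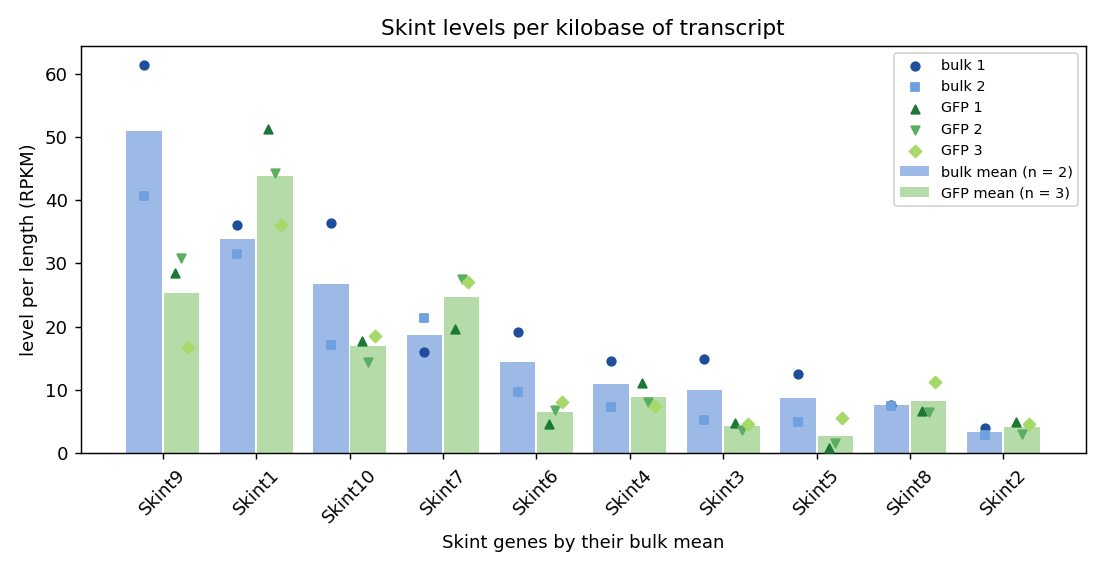
Level per length (RPKM, y axis) of each Skint gene, Skint11 left out, ordered by the bulk mean. Bars are the means of 2 bulk and 3 GFP libraries, and points are the libraries. Skint9 led in bulk at 51.0 RPKM and Skint1 in GFP at 43.9.

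No Skint gene was called in the comparison of GFP with bulk: edgeR called 0 of 10 lower and 0 of 10 higher, against 5.14% and 0.145% of all genes. At an unadjusted p under 0.05 the same test gave 4 members lower (Skint3, Skint5, Skint6 and Skint9; background 11.6%) and 0 higher (4.28%). The DESeq2 Wald test called 2 lower, Skint6 and Skint9 (background 7.05%), and limma-voom called 0 lower (5.32%). Without a filter on low counts edgeR called Skint3, Skint5, Skint6 and Skint9 lower (background 5.06%). Their changes were nearly the same as with the filter, but the SE were smaller. For Skint5 the SE was 0.25 against 0.73, so it does not measure how far the libraries of that gene agree. All 3 GFP libraries lay below both bulk libraries for 3 of 10 members, against 18.5% of all genes, and above both for 0 of 10, against 14.6%. The median log2 change was -0.48 over the members and 0.05 over all genes tested. It rested on bulk replicate 1, since without that library the members' median was 0.05, like that of all genes (0.05).

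That libraries of 1 title number share an animal is an assumption, and their genotype labels differ (WT in bulk, Lrig1 positive in GFP). A fit with the title number as a block compares GFP and bulk within 2 pairs. GFP replicate 3, alone under its title number, adds nothing to the change in that fit. The fit leaves 1 residual degree of freedom. Its SE and p-values therefore lean on the spread of other genes and do not measure how far the 2 pairs agree. For Skint5 the SE was 0.18, although its pairs were at -4.0 and -1.68. It called 5 members lower (Skint3, Skint5, Skint6, Skint9 and Skint10; background 19.7% of all genes) and 1 higher (Skint1; background 16.4%). This fit called 36.0% of all genes, and the members' counts are to be read against that.

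Skint1 had 45.5 and 39.8 CPM in bulk replicates 1 and 2, and 64.6, 55.8 and 45.5 CPM in GFP replicates 1, 2 and 3. GFP replicates 1 and 2 were the highest, and GFP replicate 3 was level with bulk replicate 1, so the groups overlapped. The means were 42.7 ± 4.09 (SD, n = 2) and 55.3 ± 9.57 CPM (SD, n = 3), a log2 change of 0.37 ± 0.21 (edgeR adjusted p = 0.453). Within the pairs, which leave out GFP replicate 3, the log2 difference was 0.50 and 0.49. With the block, which sets that library aside too, Skint1 was called higher (0.50, edgeR adjusted p = 0.00286).

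Skint7, next to Skint1 in the cluster, had 28.6 and 38.2 CPM in bulk and 35.1, 49.2 and 48.4 CPM in GFP. GFP replicate 1 lay below bulk replicate 2, and the groups overlapped. The log2 change was 0.40 ± 0.23 (edgeR adjusted p = 0.465), and 0.29 and 0.36 within the pairs. With the block together with a correction for transcript length and GC content Skint7 was called higher (0.33, edgeR adjusted p = 0.0442; background 13.7%), and with the block alone it was not (adjusted p = 0.0656). Skint8, which shares the most windows with it, had 9.86 and 9.67 CPM in bulk and 8.59, 8.46 and 14.6 CPM in GFP. GFP replicate 3 alone exceeded bulk, and the log2 change of 0.11 ± 0.29 (edgeR adjusted p = 0.891) turned negative without it, at -0.20. The count ratio of Skint7 to Skint8 ran from 2.90 in bulk replicate 1 to 5.81 in GFP replicate 2.

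Skint2, the lowest member in bulk, had 6.64 and 4.71 CPM in bulk and 8.27, 5.04 and 7.61 CPM in GFP. The groups overlapped, and the log2 change was 0.30 ± 0.30 (edgeR adjusted p = 0.691).

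Skint9 had 84.2 and 55.8 CPM in bulk and 39.0, 42.4 and 22.9 CPM in GFP. Every GFP library was below both bulk libraries, with GFP replicate 3 the lowest. The log2 change of -1.01 ± 0.30 missed the threshold (edgeR unadjusted p = 0.00955, adjusted p = 0.123), and the DESeq2 Wald test called it (adjusted p = 0.0406). Within the pairs the log2 difference was -1.11 and -0.40, and the block called Skint9 lower (-0.75, edgeR adjusted p = 3.11e-06).

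Skint3 had 57.1 and 19.9 CPM in bulk and 18.1, 14.1 and 17.9 CPM in GFP. The GFP libraries lay close together and below both bulk libraries, but bulk replicate 2 was nearer to them than to bulk replicate 1. The log2 change was -1.20 ± 0.39 (edgeR adjusted p = 0.162). Without bulk replicate 2 Skint3 was called lower (-1.78, edgeR adjusted p = 0.0145; background 2.49%), and without bulk replicate 1 the change was -0.25 (adjusted p = 0.76). With the block it was called lower (-1.08, edgeR adjusted p = 1.73e-10).

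Skint6 had 73.0 and 37.0 CPM in bulk and 17.6, 26.0 and 30.6 CPM in GFP. All GFP libraries were below both bulk libraries, GFP replicate 1 the most. The log2 change was -1.15 ± 0.33 (edgeR adjusted p = 0.11). It was called lower by the DESeq2 Wald test (adjusted p = 0.0267), with the length and GC correction (-1.22, edgeR adjusted p = 0.0471; background 5.68%) and with the block (-1.28, edgeR adjusted p = 5.20e-15). In the form of the correction that does not keep each library's median Skint6 was not called (-0.99, edgeR adjusted p = 0.0852). Without bulk replicate 1 the change was -0.58.

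Skint5, the partner of Skint6 in the promoters above, differed most among the GFP libraries. It had 56.4 and 22.4 CPM in bulk and 3.52, 6.97 and 24.9 CPM in GFP, a 7.06-fold range within the sorted group. GFP replicates 1 and 2 were far below bulk, while GFP replicate 3 exceeded bulk replicate 2. The log2 change was -1.73 ± 0.73 (edgeR adjusted p = 0.301). Without GFP replicate 3, the library with Xist, Skint5 was called lower (-2.91, edgeR adjusted p = 0.0168; background 6.22%), and without bulk replicate 1 its change was -0.92 (adjusted p = 0.68). Within the pairs the log2 difference was -4.0 and -1.68, and the block called it lower (-2.82, edgeR adjusted p = 1.77e-55). The block also sets GFP replicate 3 aside, so this call is not separate from the call without that library. The count ratio of Skint5 to Skint6 was 0.772 and 0.604 in bulk, 0.200 and 0.268 in GFP replicates 1 and 2 and 0.814 in GFP replicate 3, so these neighbours did not keep 1 ratio. The part of sex in the difference of GFP replicate 3 was not tested.

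Skint10 had 50.2 and 23.6 CPM in bulk and 24.3, 19.8 and 25.6 CPM in GFP. Bulk replicate 1 stood above the other 4 libraries, which lay together. The log2 change was -0.67 ± 0.31 (edgeR adjusted p = 0.357) and -0.02 without bulk replicate 1, and the block called Skint10 lower (-0.65, edgeR adjusted p = 1.57e-04). Skint4 had 58.2 and 29.0 CPM in bulk and 44.1, 32.0 and 29.9 CPM in GFP. Its groups overlapped, its log2 change was -0.30 ± 0.31 (edgeR adjusted p = 0.698), and it was the 1 member whose pairs differed in sign (-0.40 and 0.14).

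**Figure D2:**
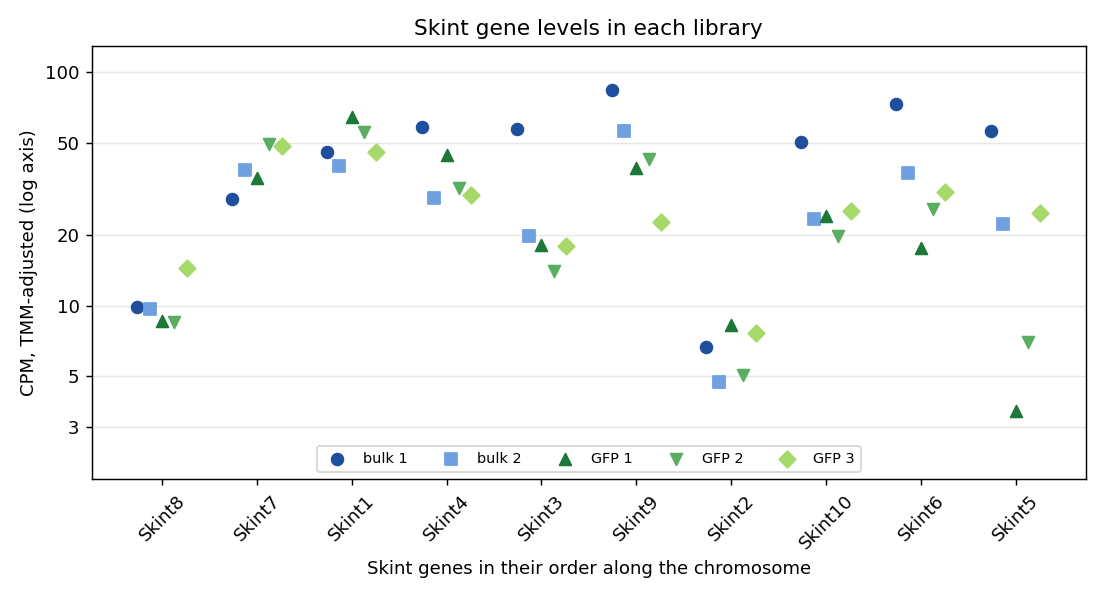
Level of each Skint gene (CPM on a log axis) in the 2 bulk and 3 GFP libraries, in the order along the chromosome. GFP lies below bulk in every library for Skint3, Skint9 and Skint6, and Skint5 spreads from 3.52 to 24.9 CPM within GFP.

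**Figure D3:**
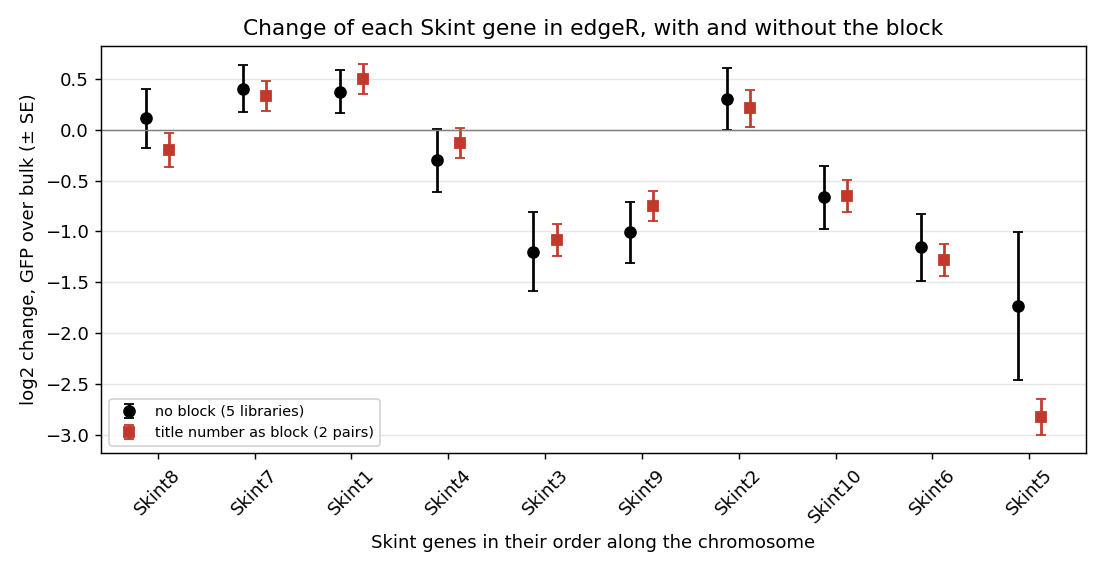
Log2 change of each Skint gene, GFP over bulk, with bars of 1 SE, without a block (5 libraries) and with the title number as a block (2 pairs). Skint5 is lowest in both fits, at -1.73 and -2.82. With the block, the SE does not measure how far the 2 pairs agree.

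The bulk libraries differed from each other in most of the family. Bulk replicate 1 was above bulk replicate 2 for 9 of 10 members, Skint7 being the exception, and by at least 1.5-fold for 6 of 10 (Skint3, Skint4, Skint5, Skint6, Skint9 and Skint10). The summed level of the 10 genes was 469.7 and 280.1 CPM in bulk and 263.2, 259.7 and 267.9 CPM in GFP. The sum was thus nearly level over the GFP libraries and bulk replicate 2, with bulk replicate 1 above them. In pairs of a shared title number 6 of 10 members were lower in GFP in both, against 38.8% of all genes, and 3 of 10 were higher in both, against 38.5%.

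The make-up of the family's counts differed between the libraries, those of bulk included. Skint1 took 9.70% and 14.19% of the Skint counts in bulk and 24.55%, 21.47% and 16.98% in GFP, every GFP library being above both bulk libraries. Skint6 took 15.54% and 13.22% in bulk and 6.67%, 9.99% and 11.42% in GFP, every GFP library being below. Skint9 took 17.92% and 19.93% in bulk and 14.83%, 16.33% and 8.56% in GFP, also without overlap. The shares of Skint3 (12.15% and 7.11% in bulk, 6.88%, 5.44% and 6.70% in GFP) were lower in every GFP library too. Those of Skint2 (1.41% and 1.68%, then 3.14%, 1.94% and 2.84%) were higher. Skint7 overlapped, with 6.09% and 13.64% in bulk and 13.34%, 18.94% and 18.07% in GFP, as did Skint4, Skint8 and Skint10. Skint5 overlapped between the groups because of GFP replicate 3, with shares of 12% and 7.99% in bulk and 1.34%, 2.68% and 9.30% in GFP. The count ratio of Skint9 to Skint1 was 1.85 and 1.40 in bulk and 0.604, 0.761 and 0.504 in GFP. These shares depend on each other, because a lower share of 1 member raises those of the rest, and they were not tested. No background was counted for shares within a family. In CPM, all GFP libraries lay below both bulk libraries for 18.5% of all genes and above both for 14.6%.

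**Figure D4:**
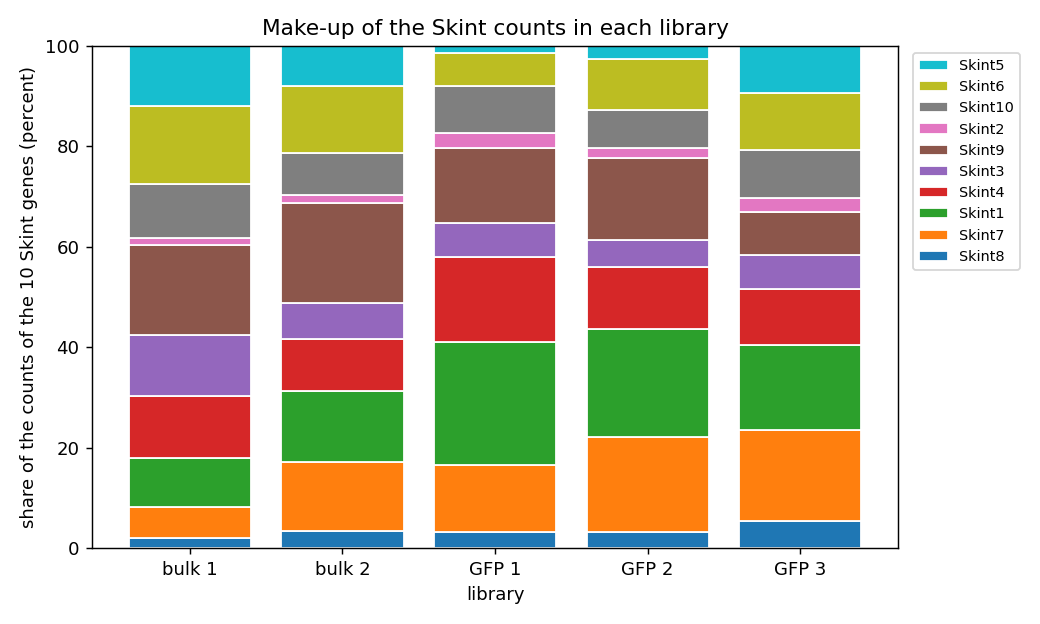
Share of the counts of the 10 Skint genes taken by each gene (percent, stacked to 100) in each library. Skint1 takes 16.98% to 24.55% in GFP and 9.70% to 14.19% in bulk.

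Transcript length moved with these differences. Over the 10 members, the log2 change had a Spearman rho of -0.564 with transcript length, and the log2 ratio of bulk replicate 1 to bulk replicate 2 a rho of 0.636. These are descriptions over genes that share libraries. Skint3, Skint4, Skint5 and Skint6 are the long members, at 3824 to 4497 bases, and the others have 1260 to 1788. Over 18107 genes, the ratio of GFP to bulk within the pairs had a rho with length of -0.312 and -0.286, the same sign as the change of the members. Over the same genes the ratio of bulk replicate 1 to 2 had a rho of -0.239, the opposite sign to that of the members. The correction for length and GC content without the block called 1 member lower, Skint6 (background 5.68%). It called 0 lower when library medians were not kept (background 4.74%). Once both the block and the correction were applied, the 5 members called lower with the block alone were again called lower (background 17.5%). With the block, the form that does not keep each library's median called the same 5 lower (background 11.5%) and Skint1, Skint2 and Skint7 higher (33.1%).

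Skint11 had 17.3 and 5.91 CPM in bulk and 5.83, 6.24 and 6.33 CPM in GFP. Bulk replicate 1 alone stood above the rest, as for Skint10, and the log2 change was -0.92 ± 0.40 (edgeR adjusted p = 0.321). Skint11 was called lower with the block (-0.76, edgeR adjusted p = 1.56e-04), although its pairs differed in sign (-1.57 and 0.08). Its change was 0.06 without bulk replicate 1, and -1.51 without bulk replicate 2, where it was called lower (edgeR adjusted p = 0.0403). With the block and the correction that does not keep library medians it was not called (edgeR adjusted p = 0.0975). Of the 11 butyrophilin relatives, 3 were tested (Skint11, Btn1a1 and Ermap) and 0 were called. Btn1a1 and Ermap were at or below 1.78 CPM in every library. Of the genes beside the cluster, Slc5a9, next to Skint8, had 16.1 and 12.99 CPM in bulk and 6.85, 8.69 and 8.16 CPM in GFP, a log2 change of -0.88 ± 0.22 (edgeR adjusted p = 0.0714). Trabd2b, on the side of Skint5 and Skint11, had a log2 change of 0.20 (edgeR adjusted p = 0.83).

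Genes of the epidermal T cells tied to this family were much lower in GFP. Of 20 listed genes 19 were tested, and 14 were called lower and 0 higher, against 5.14% and 0.145% of all genes. The median log2 change of the list was -3.30. Itgae, an integrin that holds T cells in epithelium, had 21.0 and 23.3 CPM in bulk and 1.77, 1.43 and 1.85 CPM in GFP (-3.71 ± 0.23, edgeR adjusted p = 1.83e-04). Il2rb, a receptor chain for interleukin signals, and Trdc, the delta chain constant region, changed by -3.95 and -3.52. The summed level of the list was 340.7 and 328.1 CPM in bulk and 207.6, 188.5 and 222 CPM in GFP. Most of the sum in GFP was Thy1, a surface protein of T cells that other cells of skin also make, which lay above bulk in every GFP library (0.46, edgeR adjusted p = 0.282; called higher with the block, adjusted p = 0.0155). Without Thy1 the sum was 188 to 216 CPM in the bulk libraries and 18.2 to 26.7 CPM in GFP. Of 13 listed genes for keratinocyte ligands, cytokines and a cytokine receptor chain, 10 were tested and 0 were called, with a median of 0.37. The block called 3 of them higher (background 16.4%), Tslp and Ccl27a among them. The cytokine Tslp had a log2 change of 1.08 ± 0.29 (edgeR adjusted p = 0.083), the chemokine Ccl27a 1.02 ± 0.33 (0.162) and H60c, a ligand of the activating receptor Klrk1, 0.67 (0.376).

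Among markers of keratinocyte layers, part of the suprabasal list was called lower and no basal or upper follicle gene was called. Of 11 basal layer genes 0 were called, with a median log2 change of 0.57 (Lamb3, Krt14 and Itgb1 had the smallest p), and their sum was 23340 and 26460 CPM in bulk and 35880 to 44410 in GFP. With the block 7 of these 11 were called higher, against 16.4% of all genes. Of 13 suprabasal genes 5 were called lower (background 5.14%), Lor, Cdsn and Dsc1 among them. This list had a median of -1.02 and sums of 18290 to 23520 CPM in bulk and 10280 to 13280 in GFP. With the block 11 were called lower, against 19.7% of all genes, and 1 higher. Suprabasal genes were thus abundant in the libraries labelled epidermal basal cells. Of 8 upper follicle genes 0 were called (7 higher with the block, against 16.4% of all genes), with a median of 0.47, and Lrig1 itself had 159 ± 5.82 CPM in bulk and 216 ± 8.75 in GFP, a log2 change of 0.44 (edgeR adjusted p = 0.292). Of that list Plet1 (log2 change 0.84) had the smallest p, followed by Lrig1 and Defb6 (1.13).

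Markers of other cells were mostly called lower in GFP, against 5.14% of all genes. All 8 hair genes (such as Krt81, Krt31 and Krt25), all 8 myeloid genes (Laptm5, H2-Eb1 and Cd74) and all 7 melanocyte genes (Dct, Kit and Sox10) were called lower, with median log2 changes of -5.59, -3.21 and -5.66. The myeloid sum was 355 and 361 CPM in bulk and 22.5 to 58.4 in GFP. Sox10 had 0 counts in GFP replicates 1 and 2. Of 8 sebaceous genes 4 were called lower (Soat1, Dgat2 and Scd3 had the smallest p; median -1.29), and of 6 fibroblast genes 2, Dcn and Pdgfra (median -1.65, Lum not called). The fibroblast sum was 196 and 153 CPM in bulk and 168, 36.1 and 9.56 CPM in GFP, so that GFP replicate 1 lay between the bulk libraries, and the block called all 6 lower (background 19.7%). Of the cell type lists, the melanocyte sum, 281 and 115 CPM in bulk, was higher in bulk replicate 1. So were the suprabasal and fibroblast sums and the T cell sum, with or without Thy1. The hair sum, 968 and 1876 CPM, was higher in bulk replicate 2, as were the sebaceous, myeloid, basal and upper follicle sums. The part of these cell types in the Skint differences was not tested.

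**Figure D5:**
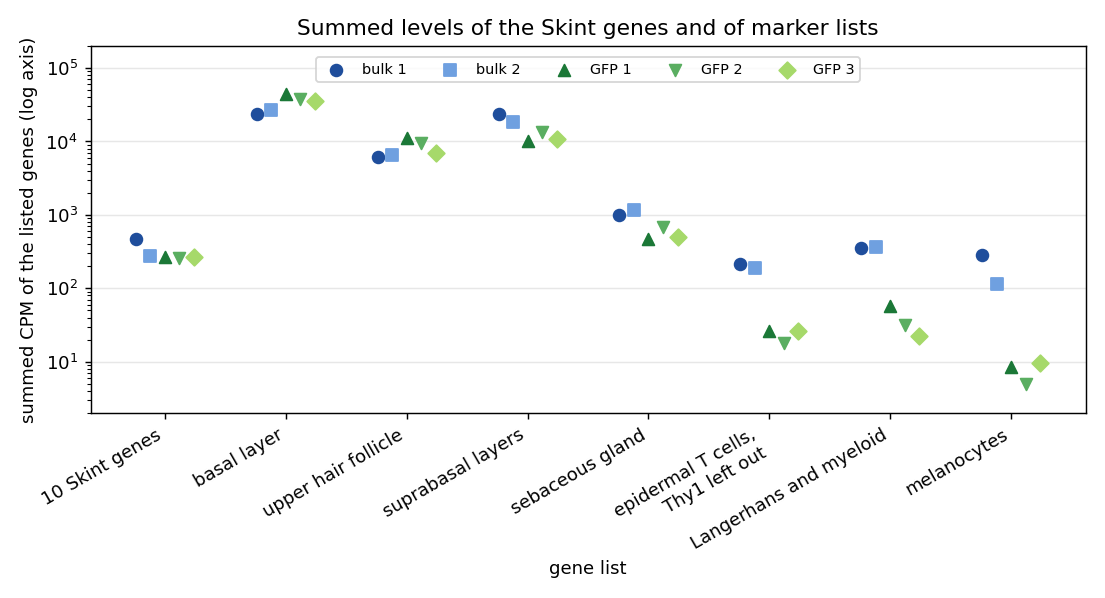
Summed CPM (log axis) of the Skint genes and of other gene lists in each library. The Skint sums of the GFP libraries, 259.7 to 267.9 CPM, lie close to the 280.1 of bulk replicate 2, unlike the sums of the T cell and myeloid lists.

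Among 14321 other tested genes with a symbol, predicted models and pseudogenes left out, the profile of the summed Skint counts was nearest to that of Asb13. Likeness was the Euclidean distance of log2 CPM over the 5 libraries, each gene centred on its mean, and Asb13 had a distance of 0.0887. Arhgef26 (0.136), Pip5k1b (0.139), Sdr16c5 (0.153) and Tspan2 (0.174) followed. Bulk replicate 1 was the highest library for each of these 5 genes, as it was for the summed Skint counts. This follows from the choice by profile and is no further likeness.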

How the data were processed

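RNA was measured by sequencing in 2 bulk and 3 GFP libraries. The authors deposited whole-number counts per versioned Ensembl gene ID, with no normalization. STAR and GRCm39 were used, per the submitters' processing notes. The versions, counting tool, annotation release and strandedness were not given in the sources used here. Symbols and transcript lengths came from GENCODE M21 (build GRCm38), in which 52073 of 56691 IDs had a symbol. As the builds differ, the only coordinates given are those of the RefSeq promoter table (GRCm38.p6). Promoters of all 10 members were matched by symbol.

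The counts were filtered with filterByExpr (minimum count 10, minimum total 15), scaled by TMM and tested in edgeR 4.0.16 (R 4.3.3) with a group term, two-sided, leaving 3 residual degrees of freedom. CPM are TMM-adjusted, and RPKM are CPM per kilobase of the longest coding M21 transcript. Replicates differed by more than counting noise (chi-square of 133.5 to 407 for each degree of freedom), so none was taken for 1 library deposited more than once. This does not show that they came from separate animals. A shared title number was read as 1 animal, an assumption, because no label says so and the genotype labels of such libraries differ. The difference of bulk 1 and 2 correlated with that of GFP 1 and 2 across genes (Pearson r = 0.474, genes not being replicates).

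The members and the 11 other lists, which hold T cell, keratinocyte ligand, butyrophilin, basal, suprabasal, upper follicle, hair, sebaceous, myeloid, melanocyte and fibroblast genes, were chosen with earlier results of these data known. The T cell list without Thy1 was added after its values were seen. Named genes are all members, the up to 3 lowest-p genes per list, and the 5 genes nearest in profile. Skint11, the genes flanking the cluster, Xist and Ddx3y are named besides. Alternatives were other scalings, tests (DESeq2 1.42.0, voom of limma 3.58.1) and filters, robust dispersion, the block, a loess trend (span 0.3) on length and GC content as an offset, and leaving out each library. The trend was first fitted without keeping each library's median. Keeping it was chosen after those results were seen, and both forms are reported.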

Additional observations from a re-analysis of the deposited data

How the results depend on the processing

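Over 18 alternatives, Skint3, Skint5, Skint6, Skint9 and Skint10 were lower in GFP in all 18, called or not. Skint1, Skint2 and Skint7 were higher in all 18. The alternatives share libraries, so these are not 18 separate results. Skint10 was at -0.02 without bulk replicate 1. Skint4 ran from -0.73 to 0.29 when each library was left out (0.29 without bulk replicate 1) and was 0.18 with the replicate block plus the trend on length and GC content, library medians not kept. Skint8 turned to -0.20 with the block, -0.068 with the trend, -0.33 and -0.069 with both (medians kept and not kept), and ran from -0.20 to 0.25 when each library was left out (-0.20 without GFP replicate 3). Against 0 members called lower, the DESeq2 Wald test gave 2, and no filter on low counts gave 4 (Skint3, Skint5, Skint6 and Skint9, background 5.06%). Those 4 kept nearly the same changes as with the filter, with smaller SE. The trend gave 1, the replicate block 5, and block with trend 5 in either form. Leaving out each library gave 0 to 1, the 1 being Skint3 without bulk replicate 2 and Skint5 without GFP replicate 3. Against 0 called higher, the replicate block gave 1 and block with trend 2, or 3 with medians not kept. Over all genes, 955 were called lower and 27 higher. No filter gave 1660 lower and 258 higher, the replicate block 3652 and 3040, and block with trend 3173 and 2489. Leaving out each library gave 479 to 1109 lower and 1 to 96 higher. Library size alone gave 10 higher, the DESeq2 Wald test 188 and the trend 70. The trend with medians not kept, an alternative chosen after seeing the data, gave 858 lower and 371 higher, and with the block 2089 and 5989. It put the median of all genes at 0.26, and library size alone put it at -0.07, against 0.05. The cause of these differences was not tested. Each member had at least 278 counts per library. Bulk had 2 libraries, and the blocked fit rests on 2 pairs with 1 residual degree of freedom. Whether more libraries would change the calls was not tested.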
